A study of Pinctada imbricata with 5 samples.

Results

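The pearl sac on day 30 after implantation was compared with the pearl sac on day 10. The sac is the pouch of mantle epithelium that encloses the implanted nucleus and secretes the pearl onto it. The tissue came from a pearl oyster whose species is Pinctada imbricata in the sample labels and Pinctada martensii in the series title. Both groups were pearl sacs of oysters 1.5 years old that had undergone surgical implantation, 1 library of day 30 and 1 of day 10, chosen by their labelled day from the 5 libraries of the series (days 10, 15, 20, 30 and 60). The sources used here do not say how many oysters or sacs went into a library, and a sac can hold cells of the donor mantle graft and of the host. The assay was digital gene expression, which counts short tags cut from messenger RNA at the restriction site CATG and assigns them to unigenes, that is assembled transcripts. The day 30 library listed 9243 unigenes and the day 10 library 9586, of 19415 listed in the 5 libraries. Of the 12404 listed on either day, 6425 were listed on both, 2818 on day 30 only and 3161 on day 10 only.

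The shell of a pearl oyster has an inner layer of nacre, made of aragonite tablets, and an outer layer of calcite prisms, and each layer is built on an organic matrix secreted by the mantle epithelium. The pearl sac takes over this secretion and is known to lay down organic and prismatic material as well as nacre on the nucleus. Pif is a nacre matrix protein that binds aragonite, nacrein-like proteins carry a carbonic anhydrase domain, and tyrosinases oxidise phenols and take part in hardening the prismatic layer and the periostracum. The mantle genes are sequences first cloned from mantle of Pinctada fucata, and their names say where they were found rather than what they do.

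The totals of tags, recovered from the deposited counts and TPM, were 4700927 on day 30 and 4731837 on day 10, and the tags listed for unigenes made up 12.8% of the total on day 30 and 19.7% on day 10. A single unigene, Unigene51171, held 20.1% of the listed tags on day 30 and 43.2% on day 10. Counts were scaled over the 5 libraries (TMM factors of 0.883 on day 30 and 0.946 on day 10) and are given as tags, or as scaled TPM, which is TPM divided by the scaling factor of the library and carries no correction for transcript length. A unigene was tested when the higher of the 2 libraries had at least 10 scaled TPM, that is 41.5 tags on day 30 or 44.8 tags on day 10. It is called higher or lower when both ends of the 95% interval of the ratio exceeded 2-fold in the same direction. Where a unigene had no entry in 1 of the 2 libraries, its fold was taken against a conventional floor of 3 tags ("at least"), and the 95% bound of its ratio, which is lower, stands beside it. With 1 library a day there was no replicate, so the interval covers counting error only, nothing measures the spread between oysters, and no p-value is given. In bulk tissue fewer cells of a type and less RNA per cell cannot be told apart.

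Shell matrix unigenes moved in both directions. The lists nacre matrix, prism matrix and mantle genes held 30 unigenes, of which 14 were listed on day 30 and 24 on day 10, so matrix genes of a shell-secreting tissue were present in both libraries. Of these, 10 were tested. Against day 10, 4 were higher on day 30, 4 were lower and 2 were neither. Over all 1497 unigenes tested, 134 were higher (8.95%) and 190 were lower (12.7%). The leading tags of the 8 called unigenes are printed here, 5′ to 3′, with that of a mantle gene 4 unigene that was neither for comparison, because each count rests on tags of 21 bases and unigenes with the same match are told apart by them. Capitals mark the CATG at the start and any base at which a second tag of the same site differed.
Nacre protein Unigene14842, first tag: CATGcaatacactccCtataa
Nacre protein Unigene14842, second tag: CATGcaatacactccAtataa
Nacre protein Unigene72742: CATGcagagaaatccacgcag
Nacre protein Unigene30025: CATGctctggctaaacacaat
PIF Unigene83722: CATGgacttcattacatcgga
Tyrosinase-like protein 1 Unigene1470, first tag: CATGcagaggaaGaaaaaaaa
Tyrosinase-like protein 1 Unigene1470, second tag: CATGcagaggaaAaaaaaaaa
Mantle gene 5 Unigene39109, site 3: CATGtttttctggaatcgctc
Mantle gene 5 Unigene39109, 3′-most site: CATGatgactactgtgtgaaG
Mantle gene 4 Unigene79830, first tag: CATGctggTgaccatcaaaac
Mantle gene 4 Unigene79830, second tag: CATGctggGgaccatcaaaac
Mantle gene 4 Unigene59776, first tag: CATGgactgctTtaacccagg
Mantle gene 4 Unigene59776, second tag: CATGgactgctGtaacccagg
Mantle gene 4 Unigene75755: CATGttgtatatataaatggt

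Within the nacre matrix list 1 unigene was higher on day 30 and 3 were lower, out of 4 tested. Nacre protein Unigene14842 had 356 tags on day 30 against 78 on day 10, 4.92-fold higher (95% interval 3.84 to 6.37). Both tags of its 3′-most site were higher, the first with 234 tags on day 30 against 57 on day 10 and the second, which differs from it by C16A (position 16 from the 5′ end of the tag), with 122 on day 30 against 17 on day 10, while its second site had 0 on day 30 and 4 on day 10. The other nacre proteins with the same kind of match went the opposite way. Unigene72742 had 26 tags on day 30 against 219 on day 10 (7.81-fold lower, 5.19 to 12.2). Unigene30025 was not listed on day 30 and had 145 tags on day 10, at least 44.8-fold lower at the floor (95% bound 36-fold). PIF (Unigene83722) had 7 tags on day 30 against 160 on day 10 and was 21.2-fold lower (10.1 to 53.6). All 3 lower unigenes were higher on day 10 than in any other library. Their tags on days 15, 20 and 60 were 0, 0 and 0 for Unigene72742, 2, 0 and 0 for Unigene30025, and 5, 3 and 3 for PIF. Unigene14842 instead had its highest level on day 30, with 5, 111 and 152 tags on days 15, 20 and 60.

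The remaining nacre matrix members lay under the minimum. Nacrein-like protein M (Unigene62981) had 14 tags on day 30 and 15 on day 10 and was listed on no other day. Of the other 7 members, 6 were listed on day 10 with 2 to 7 tags each (3 further PIF matches, 2 further nacre proteins and nacrein-like protein F) and none on day 30. The last, a perlucin match, was listed on neither day. A unigene matching amorphous calcium carbonate binding protein 1 (Unigene20679), which lies outside the lists and was looked up after the values were seen, had 2 tags on day 30 and 8 on day 10. Summed over the nacre matrix list, the level was 97.1 scaled TPM on day 30 and 142 on day 10.

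The prism matrix list was dominated by tyrosinase-like protein 1 (Unigene1470), which had 2622 tags on day 30 against 1127 on day 10 and was 2.51-fold higher (2.34 to 2.69). It was listed in none of the other 3 libraries. Nearly all of its tags came from the second CATG site from the 3′ end, whose tag runs into a stretch of A (printed above), with 2525 tags on day 30 against 1078 on day 10 for the first tag and 66 on day 30 against 35 on day 10 for the G13A tag. At the 3′-most site it had 16 tags on day 30 and 10 on day 10, a ratio of 1.73 whose interval (0.736 to 4.25) held 1. The call therefore rests on the second site. The other tyrosinase-like unigenes did not share the difference at these depths. A second tyrosinase-like protein 1 unigene (Unigene201) had 25 tags on day 30 and 28 on day 10 (ratio 0.963, 0.538 to 1.71), and tyrosinase-like protein Unigene89630 had 14 on day 30 and 13 on day 10 (1.16, 0.506 to 2.68). Like Unigene1470, neither was listed on days 15, 20 or 60. Of the other 3 members, a hypothetical tyrosinase-like match (Unigene79868) had 2 tags on day 10 alone, and a tyrosinase and a cartilage oligomeric matrix protein match, the last caught by a word of its name, were listed on neither day. The list summed to 641 scaled TPM on day 30 and 261 on day 10.

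The mantle genes divided between higher, lower and neither, and the unigenes matching mantle gene 4 did so among themselves. Mantle gene 4 Unigene79830 had 73 tags on day 30 against 19 on day 10 (4.14-fold higher, 2.47 to 7.27). Mantle gene 4 Unigene59776 was not listed on day 30 and had 277 tags on day 10, at least 85.6-fold lower (95% bound 69.2-fold), and mantle gene 4 Unigene75755 had 58 tags on day 30 and 79 on day 10, a ratio of 0.792 whose interval (0.554 to 1.13) held 1. The 3 also followed different courses over the other days. Unigene59776 had 308 and 143 tags on days 15 and 20 and none on day 60, while Unigene75755 had 39, 139 and 172 and Unigene79830 had 63, 5 and 68 on days 15, 20 and 60. The higher call of Unigene79830 came from its first tag, with 61 tags on day 30 against 12 on day 10, since its second tag (T9G) had 12 on day 30 and 7 on day 10, a ratio of 1.85 (0.671 to 5.54).

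Mantle gene 5 (Unigene39109) had 395 tags on day 30 against 153 on day 10 (2.78-fold higher, 2.3 to 3.38) and mantle protein 10 (Unigene59335) had 98 on day 30 against 157 on day 10, a ratio of 0.673 (0.518 to 0.872) that was not beyond 2-fold. Neither was listed on days 15, 20 or 60. The tags of mantle gene 5 came from 3 sites, at which the size of the difference was not the same. The third site from the 3′ end had 224 tags on day 30 against 57 on day 10 (4.24-fold, 3.16 to 5.77), whereas the leading tag of the 3′-most site had 95 on day 30 against 71 on day 10 (1.44-fold, 1.05 to 1.99). Counted from the 3′-most site alone, mantle gene 5 was tested but not called, and Unigene1470 lay under the minimum. Mantle genes 2 (Unigene63776, 7 tags on day 30 and 30 on day 10, and Unigene87335, 7 on day 30 and 14 on day 10) and mantle gene 1 (Unigene89281, 2 on day 30 and 6 on day 10) lay under the minimum, as did the other 4 members, of which only mantle gene 8 (Unigene44397) was listed on either day, with 2 tags on day 10. The mantle genes summed to 154 scaled TPM on day 30 and 165 on day 10. Over the 3 lists the sum was 892 scaled TPM on day 30 and 568 on day 10, against 90.1, 224 and 83.1 on days 15, 20 and 60. Without Unigene1470, chosen after its values were seen, the sum was 261 scaled TPM on day 30 and 317 on day 10, so the direction of the sum turns on that unigene.

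**Figure D1:**
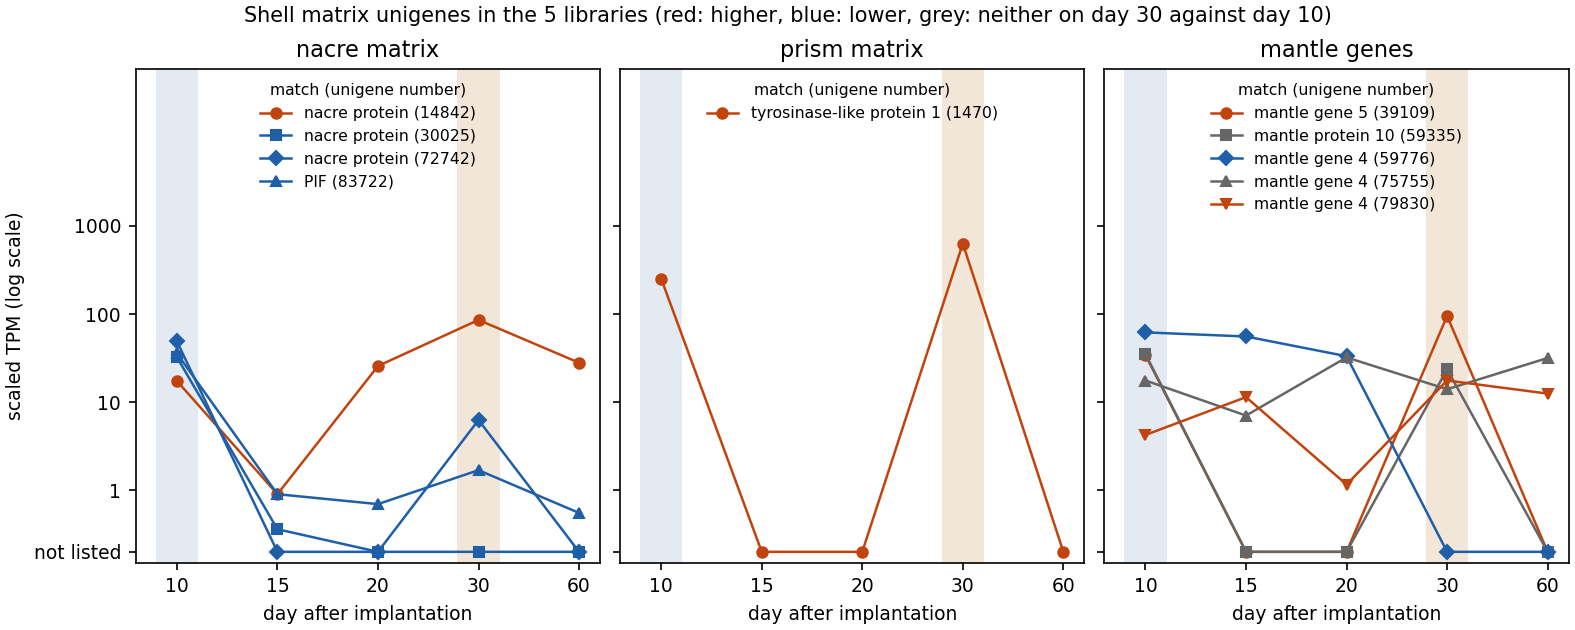
Scaled TPM (log scale) of the 10 tested shell matrix unigenes in each of the 5 libraries, by day after implantation, with 1 panel a list and 1 line a unigene; the shaded bands are days 30 and 10. Tyrosinase-like protein 1, mantle gene 5 and mantle protein 10 are listed only on days 30 and 10, while 3 of the 4 nacre matrix lines are at their highest on day 10 and the line of nacre protein Unigene14842 is at its highest on day 30.

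Across all tested unigenes, days 30 and 10 differed in a smaller share than any other pair of days did. By the same rule 21.6% of the 1497 unigenes tested were called in either direction for day 30 against day 10. The other 9 pairs lay between 30.9% (day 60 against day 30) and 52.5% (day 20 against day 15). The pairs share libraries and were scaled together, so these are descriptions. The ratio of 960 tested unigenes (64.1%) lay within 2-fold, and the median log2 ratio of scaled TPM plus 1 was -0.16. Among unigenes that were called and listed in both libraries, the fold ran from 2.33 to 250 (median 5.31) for the higher and from 2.25 to 495 (median 6.12) for the lower, and 15 of the higher were not listed on day 10 and 41 of the lower not listed on day 30.

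**Figure D2:**
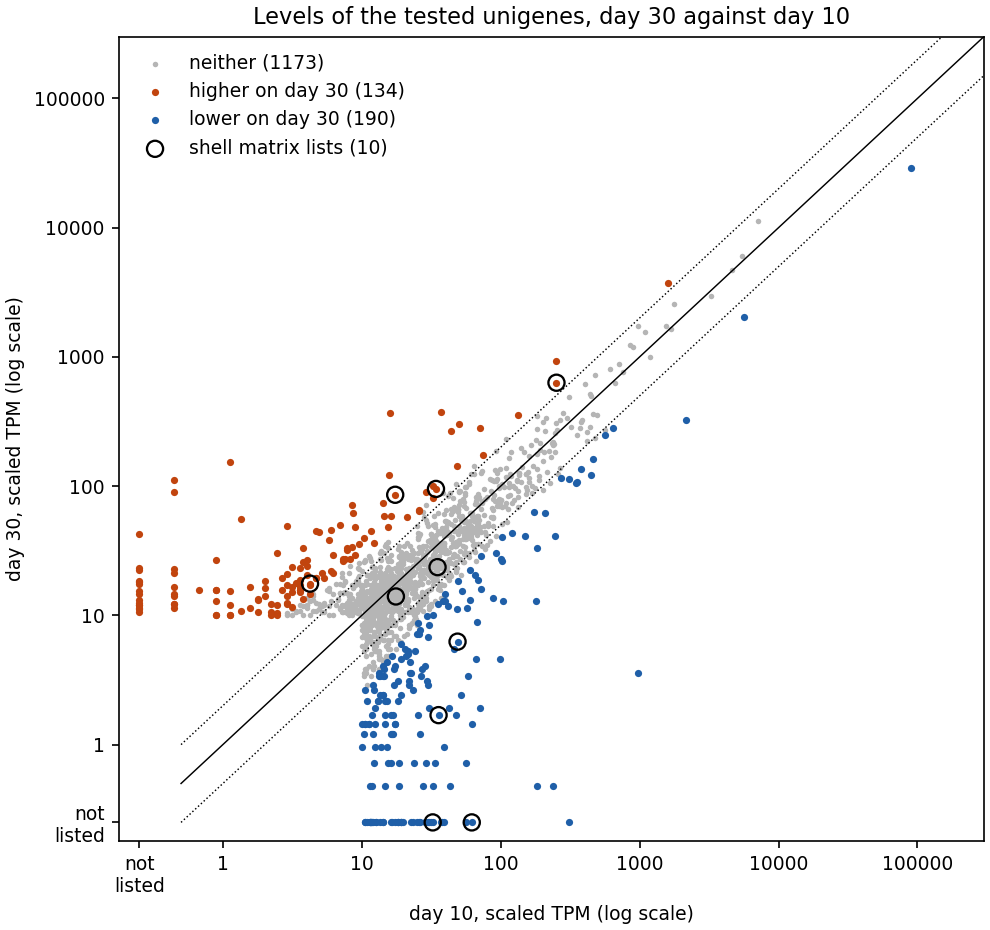
Scaled TPM on day 30 (vertical, log scale) against day 10 (horizontal, log scale) of the 1497 unigenes tested, 1 point each; red marks the 134 higher and blue the 190 lower on day 30, rings mark the 10 shell matrix unigenes, the solid line is equality and the dotted lines 2-fold. The empty corner at the lower left is the minimum of 10 scaled TPM, and 4 rings lie on red, 4 on blue and 2 on grey points.

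Most called unigenes had their highest level of the 5 libraries on 1 of the 2 days compared. Of the 134 higher unigenes, 97 reached their highest level of all 5 libraries on day 30, and day 20 held the highest level of 16, day 60 of 13 and day 15 of 8. Their median level over days 10, 15, 20, 30 and 60 was 3.46, 3.61, 3.71, 20.8 and 5.34 scaled TPM. Of the 190 lower unigenes, 136 were highest on day 10, and their medians over the same days were 23.3, 3.88, 3.83, 2.17 and 2.03. The levels on days 30 and 10 chose these unigenes, so only the levels on days 15, 20 and 60 carry information beyond the rule. The rule itself kept day 10 from being highest for a higher unigene, and day 30 for a lower one. On days 15, 20 and 60, 10 of the higher and 26 of the lower unigenes were not listed at all. The highest days and these absences were not counted over all unigenes tested, so there is no share to set them against.

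Among the higher unigenes with a match that names a protein, a ribosomal protein, a histone, a NAC-domain protein and a tubulin lay farthest from equal. Ribosomal protein L22e (Unigene79656), a protein of the large ribosomal subunit, had 1540 tags on day 30 against 71 on day 10 (23.4-fold higher, 18.4 to 30.1), and 52, 1658 and 10 tags on days 15, 20 and 60. Histone H4 (Unigene84421), a core protein of the nucleosome, had 89 tags on day 30 against 2 on day 10 (48-fold, 12.9 to 402). Unigene71884, matched to a putative transcription factor that has the NAC domain of the nascent polypeptide-associated complex and a TS-N domain, had 1561 tags on day 30 against 167 on day 10 (10.1-fold, 8.59 to 11.9) and was not listed on days 20 and 60. L22e and the NAC-domain match thus were high on some days and at or near 0 on others. Beta-tubulin (Unigene18140), a subunit of microtubules, had 209 tags on day 30 against 31 on day 10 (7.27-fold, 4.97 to 11), with 877, 11 and 49 on days 15, 20 and 60.

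Besides the shell matrix unigenes above and a peptidoglycan recognition protein given below, the other higher unigenes of this kind had extracellular, metabolic and mitochondrial matches. A SCO-spondin-like match (Unigene92465), a large secreted glycoprotein in vertebrates, had 1167 tags on day 30 against 316 on day 10 (3.98-fold higher, 3.51 to 4.52) and was highest on day 30. Adenosine deaminase (Unigene89607), which turns adenosine into inosine, had 87 on day 30 against 13 on day 10 (7.22-fold, 4.01 to 14.1). A thrombin match (Unigene83879), a serine proteinase of clotting in vertebrates, had 63 on day 30 against 14 on day 10 (4.85-fold, 2.69 to 9.38). Mitochondrial ribosomal protein S26 (Unigene88500) had 121 on day 30 against 40 on day 10 (3.26-fold, 2.26 to 4.79). Levels like or above those of day 30 were also reached on other days, with 91 and 115 tags of adenosine deaminase and 242 and 180 of thrombin on days 20 and 60, and 154 of S26 on day 60.

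The lower unigenes with a named match included 5 that were not listed on day 30 besides the shell matrix ones. A galactose-binding lectin (Unigene75519), a carbohydrate-binding protein, had no tag listed on day 30 against 174 on day 10, at least 53.8-fold lower (95% bound 43.3-fold), and was listed on no other day. A MEGF7-like match (Unigene89191), named for a membrane protein with EGF repeats, had none on day 30 against 134 on day 10 (at least 41.4-fold lower, 95% bound 33.2-fold) and likewise none on another day. Monoamine oxidase A (Unigene1820), a mitochondrial enzyme that breaks down amines, had none on day 30 against 136 on day 10 (at least 42-fold lower, bound 33.7-fold). A match to lipoprotein receptor-related protein 6 (Unigene92669), in vertebrates a co-receptor of Wnt signals, had none on day 30 against 64 on day 10 (at least 19.8-fold lower, bound 15.6-fold) and 109 on day 60. An IDH3B match (Unigene56184), a subunit of the isocitrate dehydrogenase of the citric acid cycle, had none on day 30 against 57 on day 10 (at least 17.6-fold lower, bound 13.9-fold) and 349 on day 15. The lectin and the MEGF7-like match were thus listed on day 10 alone, and the other 3 were not.

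A further 4 named matches, outside the shell lists, kept a few tags on day 30. Venom protein M (Unigene83268), a match to a wasp protein, had 4 tags on day 30 against 176 on day 10 (40.8-fold lower, 15.7 to 151). The 26S protease regulatory subunit 6B (Unigene75762), an ATPase of the proteasome cap, had 3 on day 30 against 83 on day 10 (25.7-fold, 8.48 to 127), and both of its sites were lower. RNA exonuclease 4 (Unigene53353) had 2 on day 30 against 66 on day 10 (30.6-fold, 8.14 to 258), an interval made wide by the 2 tags. Nuclear pore glycoprotein p62 (Unigene91063), which lines the transport channel of the nuclear pore, had 8 on day 30 against 137 on day 10 (15.9-fold, 7.84 to 37.5).

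Most called unigenes had no protein match. Of the 1497 tested, 1234 had none, and 118 of these were higher (9.56%) and 149 lower (12.1%). Of the 263 with a match, 16 were higher (6.08%) and 41 lower (15.6%), so the matched unigenes had a smaller share higher and a larger share lower than the unmatched. Without a match, Unigene67904 had 644 tags on day 30 against 5 on day 10 (139-fold higher, 59.2 to 429) and was listed on no other day. Unigene32297 had 463 on day 30 against 2 on day 10 (250-fold, 68.7 to 2067), and Unigene60877 373 on day 30 against 2 on day 10 (201-fold, 55.3 to 1667) with 714 on day 15. Unigene60877 was not called with only its 3′-most site. Both other unmatched unigenes that the naming rule gives, Unigene85499 with 176 tags on day 30 and Unigene20212 with 96, were not listed on day 10, at least 63.3-fold and 34.5-fold higher (95% bounds 50.9-fold and 27.5-fold). Of the 5 lower ones that the same rule gives, Unigene38000 had the most tags, with 15 tags on day 30 against 4361 on day 10 (270-fold lower, 163 to 482) and 949 on day 20. Unigene74949 was not listed on day 30 and had 1378 tags on day 10, at least 426-fold lower (95% bound 346-fold). Unigene82932 had 2 on day 30 against 1067 on day 10 (495-fold lower, 137 to 4091), and its level was high again on days 20 and 60, with 1519 and 1144 tags. Unigene27572 had 2 on day 30 against 822 on day 10 (381-fold lower, 105 to 3153), and Unigene82444 had none on day 30 against 251 on day 10, at least 77.6-fold lower (95% bound 62.6-fold), and was listed on no other day.

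**Figure D3:**
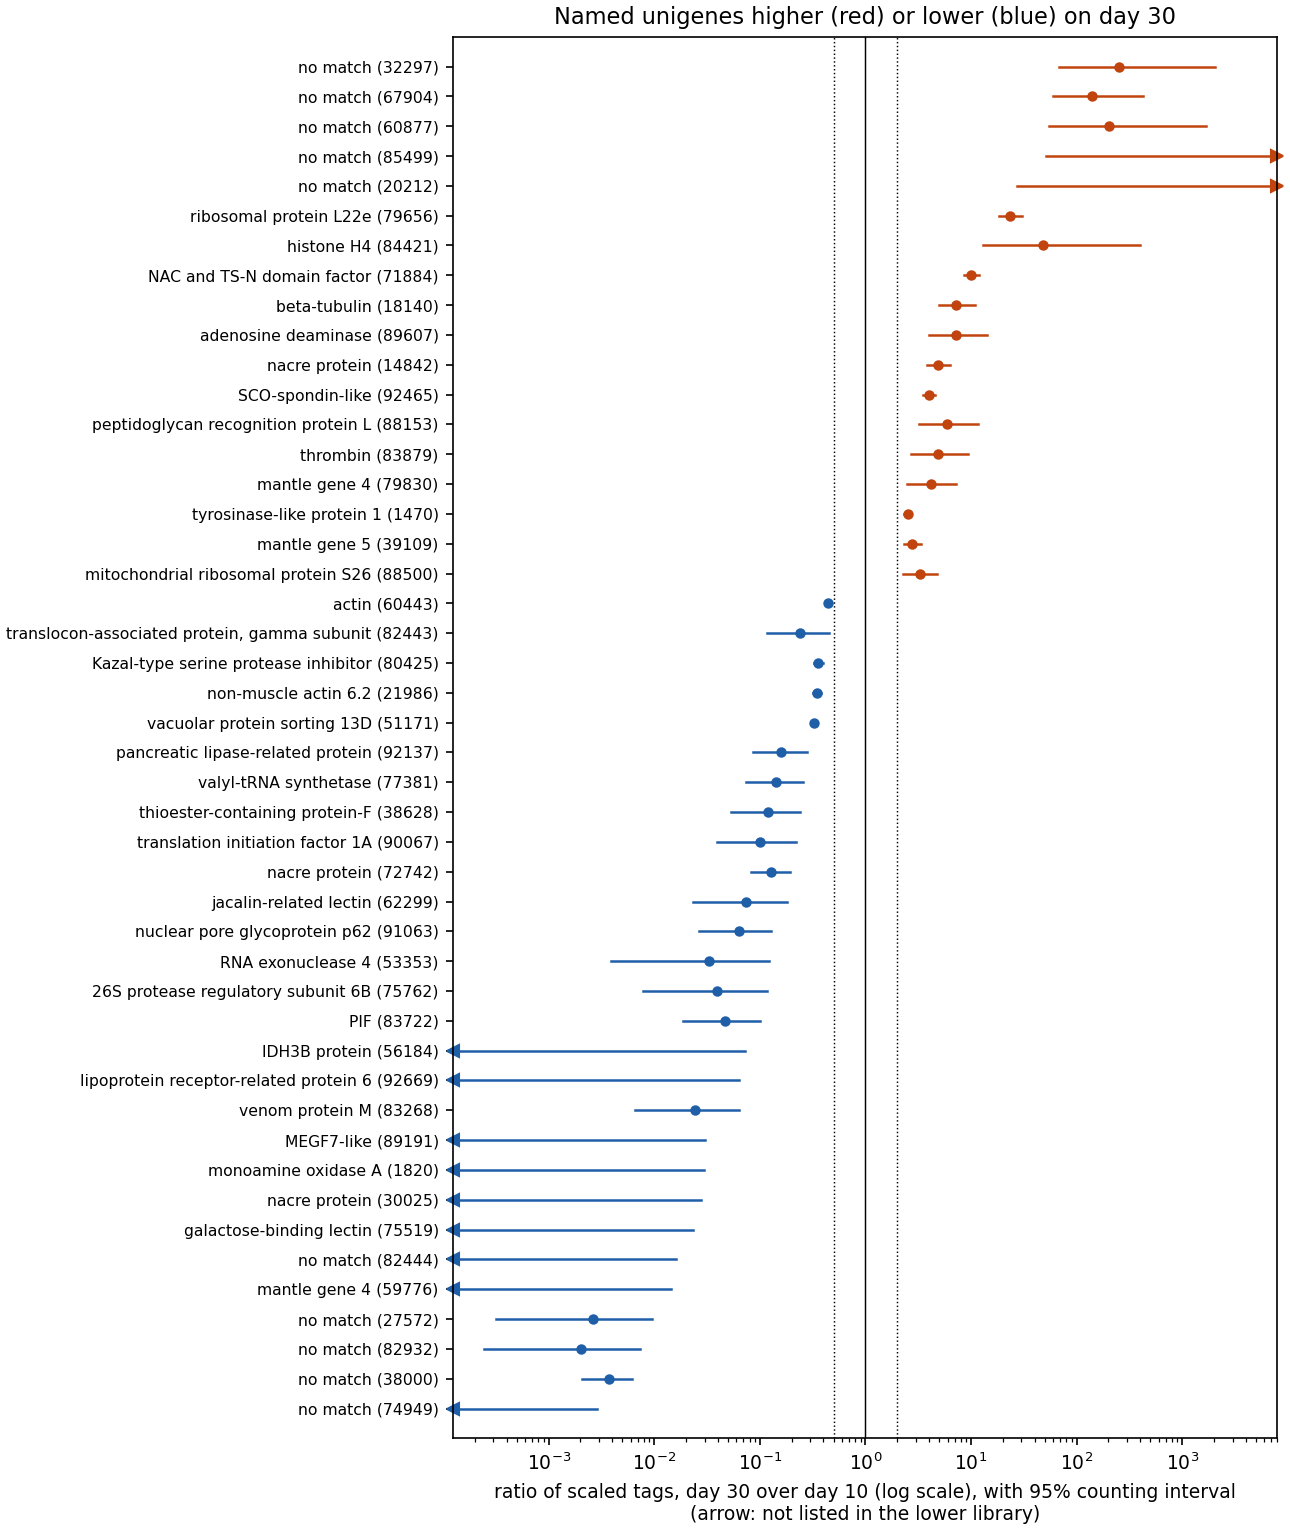
Ratio of scaled tags, day 30 over day 10 (log scale), of the named unigenes that were called, with the 95% counting interval as a line and unigene numbers in parentheses; red is higher and blue lower on day 30, arrows mark unigenes not listed in the lower library, and dotted lines mark 2-fold. The unmatched unigenes are at both ends, and the shell matrix unigenes are spread over both sides.

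Immune recognition was the list with the most members tested. Of its 13 tested members 1 was higher on day 30 (7.69%, against 8.95% of all unigenes tested) and 4 were lower (30.8%, against 12.7%), and its median log2 ratio was -0.63, against -0.16 over all unigenes tested. Peptidoglycan recognition protein L (Unigene88153), which binds bacterial cell wall, had 71 tags on day 30 against 13 on day 10 (5.89-fold higher, 3.23 to 11.6). Its 3′-most site alone gave 34.5-fold, with 42 and 22 copies of its 2 tags on day 30 against 0 and 2 on day 10, while its 2 further sites had 4 on day 30 against 6 on day 10 and 0 on day 30 against 5 on day 10. Beside the galactose-binding lectin, the lower members were a jacalin-related lectin (Unigene62299), with 5 tags on day 30 against 73 on day 10 (13.5-fold lower, 5.54 to 42.9), and thioester-containing protein-F (Unigene38628), of the complement C3 and macroglobulin family, with 9 on day 30 against 81 on day 10 (8.35-fold lower, 4.19 to 18.9). The fourth, which the naming rule left out, was complement C1q-like protein 2 (Unigene91786), with 30 tags on day 30 against 116 on day 10 (3.59-fold lower, 2.38 to 5.55). Members of the same family did not move together. A second jacalin-related lectin (Unigene91750) had 50 tags on day 30 and 18 on day 10, a ratio of 3 (1.72 to 5.46) that was not called, and another (Unigene2003) had 46 on day 30 and 85 on day 10 (0.584, 0.398 to 0.845). Complement C1q-like protein 4-like (Unigene70093) had 203 on day 30 and 112 on day 10 (1.95, 1.54 to 2.48).

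Secreted protease inhibitors of the Kazal, antistasin and follistatin kinds, which block serine proteinases or bind growth factors, were abundant on both days. The list summed to 632 scaled TPM on day 30 and 881 on day 10, against 15.7, 20.9 and 9.39 on days 15, 20 and 60. Of its 4 tested members 1 was lower and none higher, where 12.7% of all unigenes tested were lower and 8.95% higher. The lower one, a Kazal-type serine protease inhibitor (Unigene80425), had 563 tags on day 30 against 1697 on day 10 (2.8-fold lower, 2.54 to 3.08) and only 2 tags on the other days. Its 3′-most site was lower (506 on day 30 against 1660 on day 10). At its second site a tag had 32 copies on day 30 and none on day 10. The third site had 25 tags on day 30 and 37 on day 10, a ratio of 0.729 (0.42 to 1.24). The antistasin match (Unigene58429) had 1402 tags on day 30 and 954 on day 10 (ratio 1.58, 1.46 to 1.72), so its sum was larger on day 30 but stayed within 2-fold. Follistatin-like 1 (Unigene53180) had 388 on day 30 and 905 on day 10 (0.462, 0.409 to 0.521), and a second Kazal-type inhibitor (Unigene71003) had 246 on day 30 and 304 on day 10 (0.873, 0.735 to 1.04).

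Of 3 tested actins 2 were lower on day 30 and none higher, where 12.7% of all unigenes tested were lower and 8.95% higher. Non-muscle actin 6.2 (Unigene21986), the filament protein of the cell cortex, had 678 tags on day 30 against 2083 on day 10 (2.85-fold lower, 2.61 to 3.11), and actin Unigene60443 had 1036 on day 30 against 2521 on day 10 (2.26-fold lower, 2.1 to 2.43). Another actin match (Unigene75395) had 30 on day 30 and 66 on day 10 (0.49, 0.307 to 0.766) and was not called. The call of Unigene60443 lay close to the threshold, since its upper bound of 0.477 compares with 0.5 for 2-fold. It was lost with DESeq2 size factors (ratio 0.48). With only the 3′-most site this unigene could not be tested, since no tag was listed there on either day. The list had 3 tested members in all and summed to 456 scaled TPM on day 30 and 1102 on day 10.

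Housekeeping lists mostly held within 2-fold, where 8.95% of all unigenes tested were higher and 12.7% lower. Among the cytosolic ribosomal proteins L22e was higher and the other 7 tested members were neither (median log2 ratio 0.33), for instance L9 (Unigene23715) with 5114 tags on day 30 and 3846 on day 10 (1.43, 1.37 to 1.5) and L23a (Unigene61228) with 4116 on day 30 and 5346 on day 10 (0.83, 0.797 to 0.865). None of the 5 respiratory chain members was called (median -0.43), from ATP synthase beta subunit (Unigene59783, ratio 0.657, 0.611 to 0.706) to cytochrome c oxidase subunit IV (Unigene85613, 2.16, 1.83 to 2.56). Of 5 mitochondrial ribosomal proteins S26 alone was called. The 3 tested members of the stress and redox list, of 100 in all, and the 3 tested of the cell division list, of 54, were neither higher nor lower. The largest ratio in cell division was that of a geminin-like protein (Unigene4604), in animals an inhibitor of replication licensing, with 119 tags on day 30 and 50 on day 10 (2.57, 1.83 to 3.65).

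Among 6 translation factors 2 were lower and none higher (median -0.08), where 12.7% of all unigenes tested were lower and 8.95% higher. Initiation factor 1A (Unigene90067), which helps the small ribosomal subunit scan, had 7 tags on day 30 against 75 on day 10 (9.94-fold lower, 4.59 to 25.6), and valyl-tRNA synthetase (Unigene77381), which charges the tRNA of valine, had 13 on day 30 against 98 on day 10 (6.99-fold lower, 3.9 to 13.6). In the secretory pathway list 2 of 5 were lower and none higher. The gamma subunit of the translocon-associated protein (Unigene82443), which assists transport into the endoplasmic reticulum, had 12 on day 30 against 54 on day 10 (4.17-fold lower, 2.2 to 8.57). The second was Unigene51171, the most abundant unigene of both libraries, matched to vacuolar protein sorting 13D, with 120940 tags on day 30 against 403032 on day 10 (3.09-fold lower, 3.07 to 3.11). Nearly all of its tags lay at its second site, and the 3′-most had too few to be tested, so the call could not be checked there. The Sec61 alpha match (Unigene84036), the channel of the same membrane, had 77 on day 30 and 73 on day 10 (1.14, 0.815 to 1.59). Among 8 transcription factors the NAC and TS-N domain match was called, and the other 7 had ratios from 0.386 to 1.73.

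The lists for calcium and carbonate handling, chitin and glycan, extracellular matrix and adhesion, BMP, TGF-beta and Wnt signalling, cell death, ion transport, and proteasome and ubiquitin had 1 to 3 tested members each by their name patterns and none called. The patterns did not take in the 26S protease regulatory subunit 6B (Unigene75762), a proteasome subunit, or the match to lipoprotein receptor-related protein 6 (Unigene92669), which were both lower. Calcineurin B (Unigene90071), a calcium-binding phosphatase subunit, had 60 tags on day 30 and 122 on day 10 (0.53, 0.383 to 0.728). An integrin beta-1-like match (Unigene20091), a receptor for extracellular matrix, had 16 on day 30 and 54 on day 10 (0.319, 0.171 to 0.567). A sulfotransferase match (Unigene75507) had 45 on day 30 and 16 on day 10 (3.03, 1.68 to 5.75). The ratios of the integrin and the sulfotransferase passed 2-fold, but their intervals did not lie wholly beyond it. For proteinases and tubulin the only tested member of each was the thrombin match and the beta-tubulin described above.

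**Figure D4:**
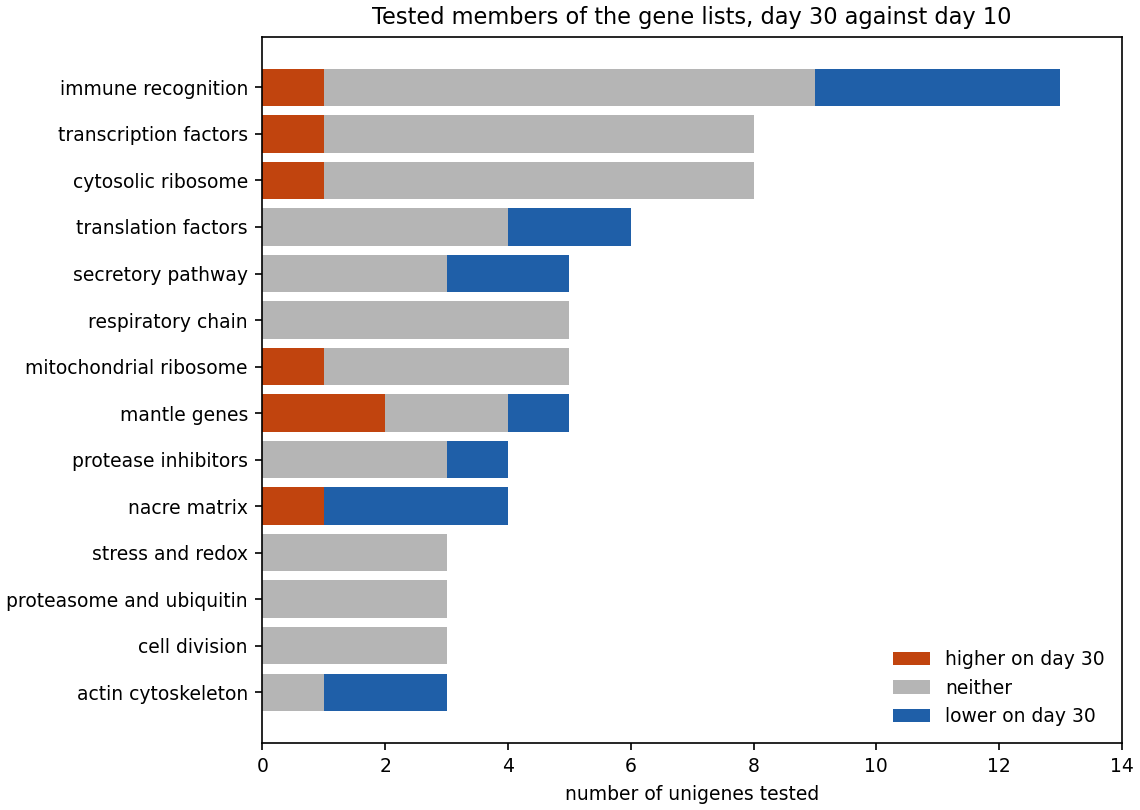
Number of unigenes tested (horizontal) in each gene list with 3 or more, split into higher on day 30 (red), neither (grey) and lower on day 30 (blue) against day 10. The nacre matrix and mantle lists are the only ones drawn with both colours apart from immune recognition, and the respiratory chain, stress and redox, cell division, and proteasome and ubiquitin lists are all grey; the proteasome pattern did not take in the 26S protease regulatory subunit 6B, which was lower.

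Among markers of other cell types 1 unigene, of the digestive gland list, was called. Motile cilia and sperm (42 unigenes, summed level 19.7 scaled TPM on day 30 and 29.7 on day 10), muscle (25 unigenes, 13.2 on day 30 and 6.7 on day 10) and egg and germline (4 unigenes, 1.93 on day 30 and 0.447 on day 10) had no member at the minimum. Allograft inflammatory factor 1 (Unigene89534), the only hemocyte marker of 4 listed on day 30, had 711 tags on day 30 and 713 on day 10, a ratio of 1.08 (0.968 to 1.19). The pancreatic lipase-related match (Unigene92137) of the digestive gland list had 15 tags on day 30 against 101 on day 10 (6.24-fold lower, 3.61 to 11.6), and its part in the other differences was not tested. The 2 tested members of the nervous list were neither higher nor lower. The patterns for byssus and foot, for proteins of the mitochondrial genome and for ribosomal RNA matched nothing, which leaves RNA quality without a value. Mobile elements summed to 46 tags on day 30 and 6 on day 10, with no member at the minimum.

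Gene ontology terms covered 137 of the unigenes tested (9.15%), of which 8 were higher and 14 lower. The shares to set the classes against are those of all 1497 unigenes tested, 8.95% higher and 12.7% lower. Only 5 classes held 10 or more tested unigenes. In all they held 65 unigenes, 4 higher (6.15%) and 6 lower (9.23%), and 14 of the 65 sat in more than 1 class. Protein binding had 2 of 33 higher (6.06%) and 5 lower (15.2%), and its median log2 ratio of -0.16 was that of all unigenes tested. Its lower members were monoamine oxidase A, both called actins, the 26S subunit 6B and Unigene20170, a match without a protein name. ATP binding had 1 of 10 higher (10%) and 3 lower (30%, median -0.82), and those 3, both actins and the 26S subunit, were also in protein binding. Cytoplasm had 1 of 13 higher and 2 lower, membrane 1 of 10 each way, and nucleus 1 of 19 each way. The higher unigene of ATP binding, cytoplasm and nucleus was the same, Unigene9022, with 166 tags on day 30 against 46 on day 10 and a match without a protein name. Classes of 5 to 9 tested unigenes were added after the values were seen. Oxidation reduction had 3 of 6 lower and none higher (median -2.09), namely monoamine oxidase A, the IDH3B match and Unigene39645, and the nucleolus had 2 of 6 lower and none higher (median -1.08), namely RNA exonuclease 4 and p62. Cytosol (9 tested) and integral to membrane (6) had 2 lower each, the second also 1 higher, RNA binding (9) had 1 each way, mitochondrion and regulation of transcription (5 each) had 1 lower, and structural constituent of ribosome and GTP binding (5 each) had 1 higher. Zinc ion binding (8), binding (7) and intracellular part (5) had none called.

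A unigene's count is a sum over tags, and the tags themselves often differed between the days where the sum did not. At 839 sites of the tested unigenes more than 1 tag was listed, and the added tags differed from the leading one by 1 base in 1877 cases and by 2 in 258. The second tag reached 20 tags over both days at 330 sites of 324 unigenes. At 141 of these sites (42.7%) the tag with more copies on day 30 was not the tag with more copies on day 10, and at 122 (37%) the intervals of both ratios lay on opposite sides of 1. The same held for other pairs of days, among which the leading tag differed at 37.4% to 46.9% of sites. It held also at deeper sites, with 35 of 69 (50.7%) where the second tag reached 100. Of the 122 sites, 116 lay in unigenes that were neither higher nor lower by their sum, out of 272 such sites, and 6 in called ones, out of 58. The call is made on the sum, in which opposed tags cancel, so fewer such sites in called unigenes follow partly from the rule. These counts were added after the tags were seen.

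Examples are printed because the tags that separate the days differ by a single letter, in capitals after the CATG, with positions counted from 1 at the 5′ end of the tag. All but adenosine deaminase, whose second tag had fewer copies, are among the 31 of the 330 sites with a named match, and they were chosen after their values were seen.
Galectin Unigene82154, first tag: CATGgggagaCgaggaaagag
Galectin Unigene82154, second tag: CATGgggagaTgaggaaagag
Non-muscle actin 6.2 Unigene21986, first tag: CATGttcccagggatCgctga
Non-muscle actin 6.2 Unigene21986, second tag: CATGttcccagggatAgctga
Proteasome subunit alpha type-5 Unigene90760, first tag: CATGcaaataaatAaggaaaa
Proteasome subunit alpha type-5 Unigene90760, second tag: CATGcaaataaatGaggaaaa
Initiation factor 3 subunit F Unigene80803, first tag: CATGgttccatttattAaaaa
Initiation factor 3 subunit F Unigene80803, second tag: CATGgttccatttattGaaaa
Adenosine deaminase Unigene89607, first tag: CATGgttatgAatatggggat
Adenosine deaminase Unigene89607, second tag: CATGgttatgGatatggggat
Thioester-containing protein-F Unigene38628, first tag: CATGgctctaaGtcgggacag
Thioester-containing protein-F Unigene38628, second tag: CATGgctctaaAtcgggacag

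For galectin, a lectin of beta-galactosides, the first tag had 561 copies on day 30 and 580 on day 10, a ratio of 1.04 (0.927 to 1.17). The second tag (C11T) had 10 copies on day 30 against 614 on day 10, 56.9-fold lower (30.8 to 119), and 0, 2 and 0 on days 15, 20 and 60. Nearly the whole difference in the galectin sum, 571 tags on day 30 and 1206 on day 10, was thus in 1 of its tags. Non-muscle actin 6.2 had 673 copies of the first tag on day 30 against 1479 on day 10 (2.04-fold lower, 1.86 to 2.24), while the second tag (C16A) was not listed on day 30 against 600 copies on day 10, nor on any other day. By its most counted tag alone the actin was not called, nor were thioester-containing protein-F (Unigene38628), the IDH3B match (Unigene56184) and the translocon gamma subunit (Unigene82443). For proteasome subunit alpha type-5, part of the catalytic core particle, the first tag had 108 copies on day 30 and 99 on day 10 (1.18, 0.887 to 1.56) and the second (A14G) none on day 30 against 140 on day 10, and none on any other day.

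For initiation factor 3 subunit F, of the complex that brings the small ribosomal subunit to mRNA, the 2 tags moved in opposite directions. The first tag had 105 copies on day 30 against 23 on day 10 (4.92-fold higher, 3.11 to 8.1), the second (A17G) had 9 on day 30 against 83 on day 10 (8.55-fold lower, 4.29 to 19.4), and the sum of 114 on day 30 and 110 on day 10 was near equal. For adenosine deaminase the first tag had 83 copies on day 30 and none on day 10, and the second (A11G) none on day 30 and 11 on day 10. Over days 15, 20 and 60 the first tag had 0, 91 and 0 copies and the second 0, 0 and 112, so no library listed both. For thioester-containing protein-F the first tag had 9 copies on day 30 against 41 on day 10 and the second (G12A) none on day 30 against 40 on day 10, so both were lower. Of the shell matrix unigenes, nacre protein Unigene14842 and tyrosinase-like protein 1 Unigene1470 had both tags of a site higher on day 30.

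**Figure D5:**
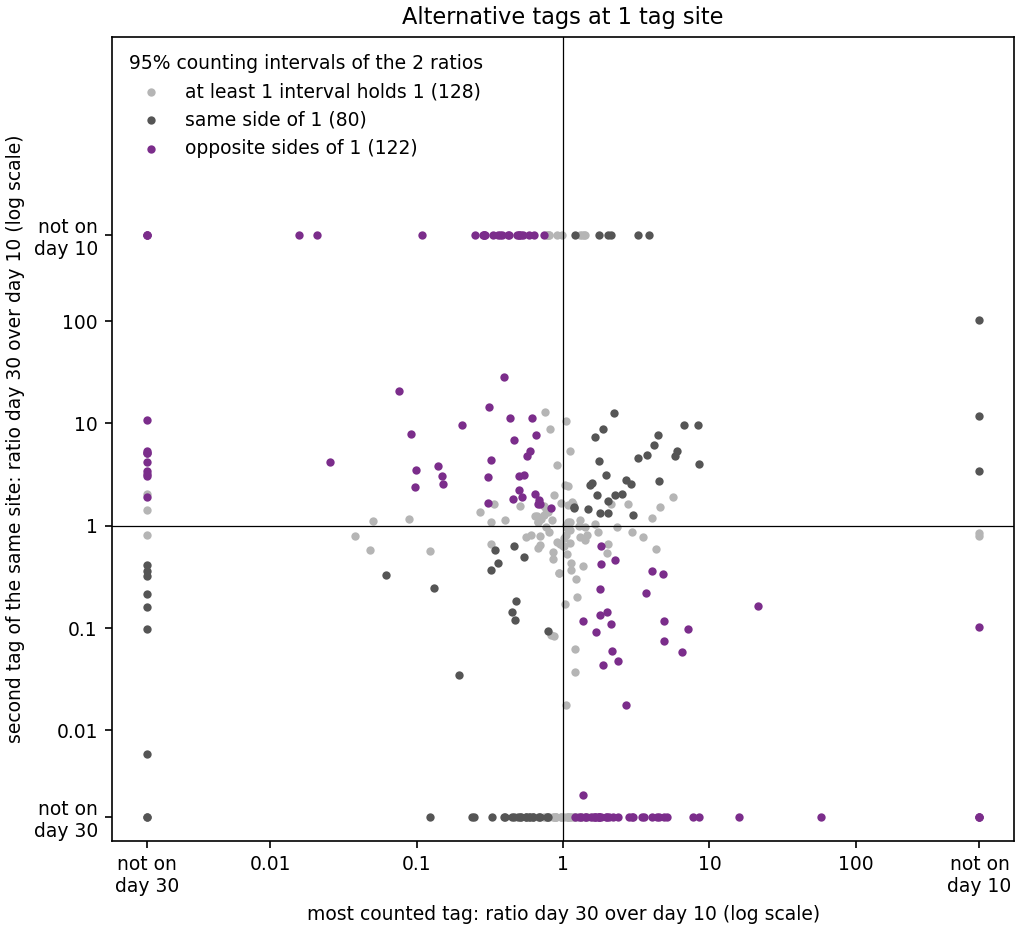
Ratio of day 30 over day 10 of the second tag (vertical, log scale) against that of the most counted tag (horizontal, log scale) at the 330 sites whose second tag had at least 20 copies over both days, 1 point a site; tags not listed on 1 of the days are drawn at the edges. Purple points, 122 of 330, have both intervals on opposite sides of 1, dark points (80) on the same side, and pale points at least 1 interval that holds 1.

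Tags at different CATG sites of 1 unigene also parted in a smaller number of cases. Tags at 2 or more sites were listed for 513 of the unigenes tested, and the second site reached 20 tags in 183. Both intervals lay on the same side of 1 in 36 of these and on opposite sides in 20. The unigenes with the most tags among those with sites on opposite sides had no match. Unigene81634 had 326 tags on day 30 against 1911 on day 10 at its 3′-most site (ratio 0.184, 0.163 to 0.207) and 176 on day 30 against 97 on day 10 at its second (1.96, 1.52 to 2.53). Unigene77444 had 360 on day 30 against 36 on day 10 at the 3′-most site (10.8, 7.64 to 15.6) and 4 on day 30 against 137 on day 10 at the second (0.0315, 0.00846 to 0.0825), so its sum of 364 on day 30 and 173 on day 10 was not called, though it was called higher with DESeq2 size factors (ratio 2.46). Of the other 4 that the naming rule gives, Unigene57925, Unigene86821, Unigene79473 and Unigene19488, none was called by its sum, but Unigene57925 was called lower with total tags only (ratio 0.458).

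The unigenes closest to the threshold had no protein match on the called side. Just inside it, Unigene1593 had 267 tags on day 30 against 115 on day 10 (2.5-fold higher, 2 to 3.14) and Unigene56972 had 36 on day 30 against 114 on day 10 (2.94-fold lower, 2 to 4.4). Just outside it, Unigene68852 had 294 tags on day 30 and 129 on day 10 (ratio 2.46, 1.99 to 3.05) and Unigene80304 had 35 on day 30 and 111 on day 10 (0.34, 0.226 to 0.501).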

How the data were processed

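Pearl sac libraries of day 30 and day 10, 1 each, were compared, with days 15, 20 and 60 used for scaling and as description. The deposited tables give, per the file headers, a tag count for each unigene, a TPM value, the best protein match, gene ontology terms and each tag with its copy number and CATG site. The deposited count is the unnormalized sum of tag copies. The deposited TPM equals the count over a total of tags, by the values, with no length correction. The labels name a TruSeq kit, which does not make such tags. The aligner is not given in the sources used here, nor is the assembly, and positions in a genome were not used. No tag had fewer than 2 copies and no tag was listed for 2 unigenes.

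Totals were recovered from count and TPM over unigenes of at least 5000 tags. TMM factors over the 5 libraries came from edgeR 4.0.16 (R 4.3.3). Ratios carry the 95% Clopper-Pearson interval conditional on both counts (scipy 1.17.1, Python 3.11.15), which covers counting error only. A gene not listed was set at a floor of 3 tags for a fold. The interval code was checked on simulated data. Alternatives were DESeq2 1.42.0 size factors, total tags, TMM over 2 libraries, listed tags without the top unigene, other minimums and folds, the 3′-most site, and the single most counted tag.

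The 33 lists are patterns over protein matches. Named were all shell list members, the 12 called unigenes with a named match and the 5 without a match farthest from equal in each direction, up to 4 called members of each other list, and up to 6 unigenes with opposed sites. The members, lists and rules were chosen with earlier results of these data known, and the lists were trimmed of false matches after the files were seen.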

Additional observations from a re-analysis of the deposited data

How the results depend on the processing

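No paired analysis was possible because each day has 1 library, and for the same reason no replicate could be left out. No called unigene that is named changed direction under any alternative, though the other minimums and folds leave every ratio as it was. Against 134 higher and 190 lower unigenes, no minimum gave 401 and 494, a minimum of 20 scaled TPM gave 68 and 106, an interval beyond 1.5-fold gave 208 and 302, and one beyond 4-fold gave 58 and 103. The 4 higher shell matrix unigenes became 0 beyond 4-fold and 2 with only the 3′-most site, where Unigene1470 and Unigene39109 lost the call, as did Unigene60877, Unigene51171 and Unigene60443. For Unigene60443 that site had no tag on either day, and for Unigene51171 it had too few, so neither could be tested there. Unigene1470, with 16 tags on day 30 and 10 on day 10 at that site, also lay under the minimum. Scaling by DESeq2 size factors moved all log2 ratios by 0.12 and gave 152 higher and 165 lower (47.9% of calls higher, against 41.4%), with actin Unigene60443 no longer called. Total tags gave 112 and 204 (35.4%), a shift of -0.10. With only the 3′-most site 104 of the 134 and 169 of the 190 were kept. With the single most counted tag, chosen after seeing the data, 109 and 169 were kept. Unigene21986 then lost the call by its ratio, while Unigene56184, Unigene38628 and Unigene82443 fell under the minimum and were not tested. The median log2 ratio of the immune recognition list ran from -0.71 to -0.27 over the alternatives, and that of the translation factors from -0.51 to 0.49, so the sign of the second depends on the setting. Of the other values, 575 stayed within the counting interval or range of the reported value and 32 did not. Part of the 575 could not differ, because another minimum or fold for the call leaves each ratio unchanged. Where a stricter or looser rule does not itself set the change, the cause was not tested. The minimum keeps calls to unigenes with about 41.5 tags on day 30 or 44.8 on day 10 in the higher library.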
